A study of Danio rerio with 16 samples.

Results

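The antioxidant and NRF2 target genes described here are 10 genes, taken from the deposited gene count table by their symbols: nfe2l2a, prdx1, gclc, gclm, hmox1a, osgn1, gpx1b, srxn1, txnrd3 and cat. Each symbol matched 1 row of the 32058 features counted, and all 10 were among the 17799 genes with enough counts to test. RNA was sequenced from dissected livers of zebrafish (Danio rerio) larvae in 16 libraries, each a pool of 30 larvae, forming 8 groups of 2 (n = 2 throughout). The 4 dpf and 5 dpf groups (days post fertilization) were wild type larvae kept normally. At 6 dpf, wild type larvae fasted with ethanol, transgenic Tg(fabp10a:GCaMP6s) larvae fasted without it, and wild type larvae fasted without it were collected. At 7 dpf, the groups were fed larvae with "ventral" in their titles, fed larvae and fasted larvae, all wild type. The labels give no ethanol dose or exposure time and do not say what ventral refers to. The transgene carries a fluorescent calcium sensor under the hepatocyte promoter of fabp10a.

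NRF2, encoded in zebrafish by nfe2l2a and its paralog nfe2l2b, is a transcription factor held low by KEAP1, which hands it to a CUL3 ubiquitin ligase for degradation. Oxidants and electrophiles modify KEAP1 cysteines, NRF2 then accumulates, pairs with a small MAF protein and binds antioxidant response elements. Its classic targets make glutathione, recycle thioredoxin, supply NADPH and break down heme, and hepatocytes, which carry out most oxidative drug and alcohol metabolism, depend on them. Regulation of NRF2 is mainly at the level of the protein, which RNA counts do not measure.

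Library totals ran from 18995692 to 28033476 counts, and 3 counts, the limit a count of 0 allows, corresponded to 0.0826 to 0.165 CPM, a count scaled to a fixed library total. These limits cover counting error only. All 13 hepatocyte markers listed were detected in every group, and their sum took 7.05% to 18.4% of a library's counts. All such marker sums are shares of raw counts, before TMM scaling. EGFP, counted as an added feature and part of the sensor, had 136106 and 43968 counts in the GCaMP libraries and 38 in each 6 dpf fasted wild type library, with 0 in the others. Fed ventral replicate 1 correlated best with a fed library and not with the other fed ventral library. In whole livers, fewer cells of a type and less RNA per cell cannot be told apart.

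CPM levels use library sizes scaled by TMM, and each difference is a log2 fold change ± its standard error (SE) from edgeR's quasi-likelihood F test. A gene was said to rise or fall, and is called changed, where the Benjamini-Hochberg adjusted p over all genes tested was under 0.1 and the change at least 2-fold, the limits the series design gives. Whether the pools came from separate clutches is not stated, so p-values reflect spread among these libraries alone, which may be technical, and an exact permutation test of 2 against 2 libraries cannot go below p = 0.333. Several comparisons share libraries: the ethanol and GCaMP ones share the 6 dpf fasted libraries, those of fed and of older fasted larvae share the 7 dpf fasted ones, and the ventral comparison shares the fed ones.

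Calls among the 10 genes are given beside the shares of all genes tested, which also differed widely between comparisons. In fed against fasted livers at 7 dpf, 3 of the 10 rose and 2 fell, where 20.7% of all genes tested rose and 16.8% fell. With ethanol at 6 dpf 2 rose and 1 fell, against 11.8% and 11.1% of all genes. From 4 to 5 dpf 2 rose and 1 fell, against 7.44% and 7.42%, and from 5 dpf to 6 dpf fasted 1 rose and none fell, against 7.98% and 10.2%. Between 6 and 7 dpf fasted 1 rose and none fell, against 2.69% and 4.12%, while over the whole span from 4 dpf to 7 dpf fasted 2 rose and none fell, against 18.7% and 20.3%. In fed ventral against fed livers none rose and 2 fell, against 0.5% and 0.663% of all genes. In GCaMP against wild type none was called, against 0.714% higher and 0.247% lower. The members thus did not move as a block in any comparison: their median log2 fold change was 0.29 for food and 0.37 for ethanol, beside -0.0036 and 0 over all genes.

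**Figure D1:**
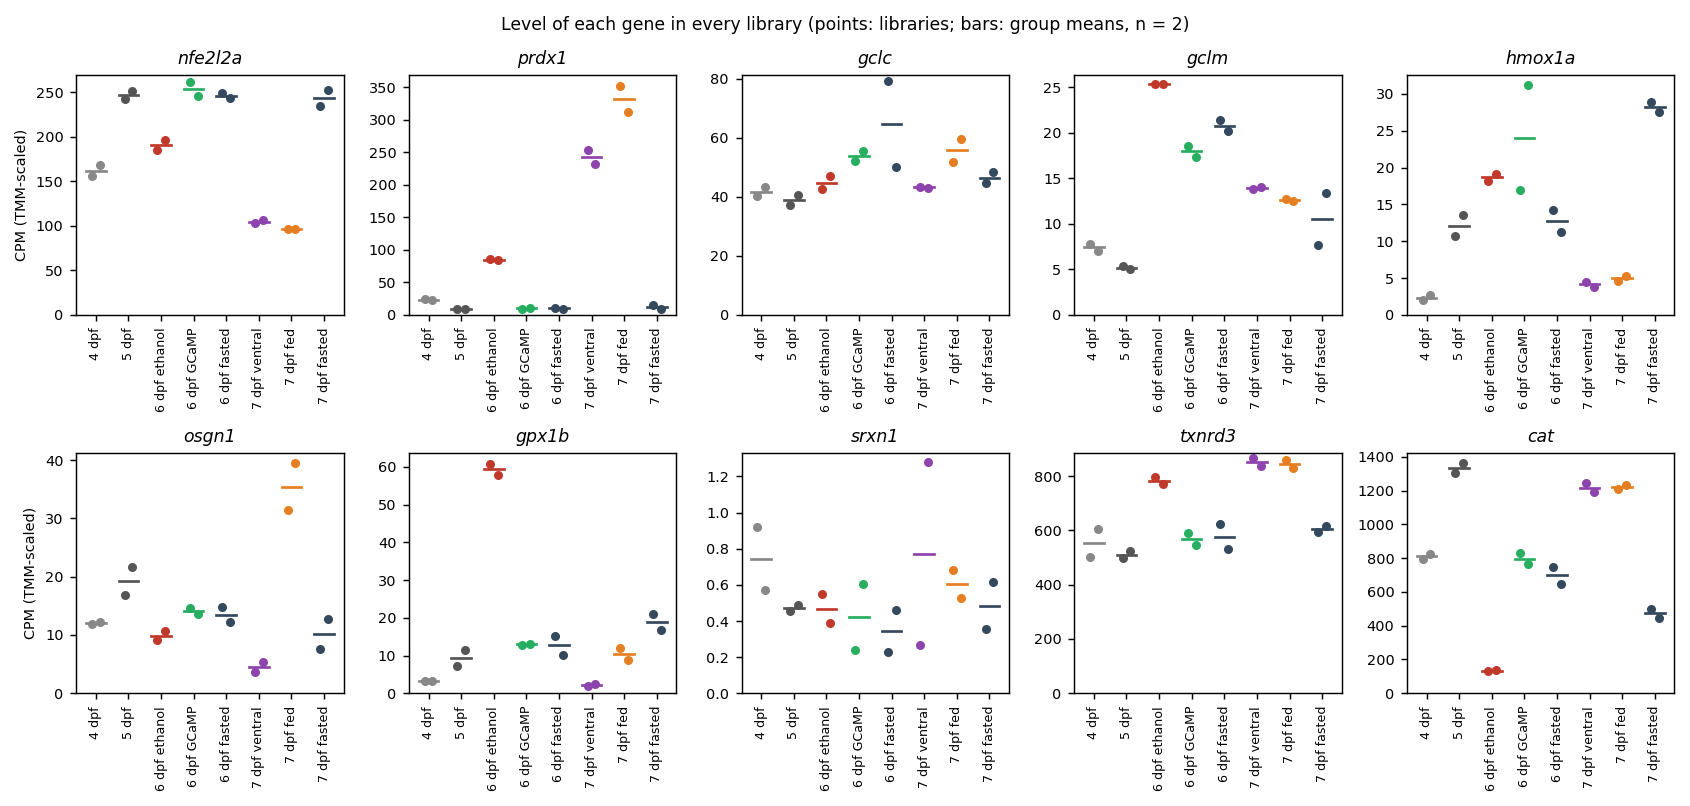
Level of each of the 10 genes (y axis, CPM, linear from 0, a scale of its own in each panel) in the 8 groups (x axis), with points for the 2 libraries of a group and a bar for their mean. prdx1 stands out in fed, fed ventral and ethanol livers, cat is lowest with ethanol at 132 and 135 CPM, and nfe2l2a is lowest in fed livers at 96.7 CPM in each library.

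The regulator nfe2l2a, which encodes the main NRF2 protein, had 156 and 168 CPM at 4 dpf, 242 and 251 at 5 dpf, 249 and 243 in fasted livers at 6 dpf and 235 and 252 in those at 7 dpf. It was thus lowest at 4 dpf and at a like level in the 3 later groups, whose libraries overlapped. The gain at 5 dpf against 4 dpf, 0.61 ± 0.11 (edgeR adjusted p = 0.000209), stayed short of 2-fold. In fed livers nfe2l2a fell to 96.7 and 96.7 CPM, against 235 and 252 in fasted livers, a log2 change of -1.33 ± 0.11 or 2.52-fold lower (edgeR adjusted p = 5.47e-09). Fed ventral livers had 103 and 106 CPM, so every library of fed larvae lay below every other library of the series. With ethanol it had 185 and 197 CPM, against 249 and 243 in fasted livers. That difference of -0.37 ± 0.10 (edgeR adjusted p = 0.01) was short of 2-fold, and its sign turned when libraries were scaled by total counts alone (0.09). GCaMP livers, with 262 and 246 CPM, overlapped the wild type.

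Among 13 other tested genes of the regulatory circuit, 3 rose and 4 fell with food, where 20.7% of all genes rose and 16.8% fell. Under ethanol 1 of the 13 was higher and none lower, against 11.8% and 11.1% of all genes. nfe2l2b, the second zebrafish NRF2 gene, rose to 10.99 and 8.87 CPM in fed livers, against 0.576 and 1.03 CPM in fasted livers (3.64 ± 0.41, edgeR adjusted p = 8.4e-07). The NRF2 paralogs therefore moved in opposite directions with food, although nfe2l2b had few reads. maff, a small MAF partner, fell to 16.04 and 10.5 CPM in fed livers, against 59.3 and 66.5 CPM in fasted livers (-2.25 ± 0.19, edgeR adjusted p = 1.45e-08). mafk, another small MAF (-1.74 ± 0.37), and nfe2l1a, a related factor (-1.83 ± 0.37), fell too. keap1a, named here after its values were seen because it encodes the NRF2 inhibitor, rose to 58.1 and 56.7 CPM in fed livers, against 27.6 and 23.1 CPM in fasted livers (1.18 ± 0.13, edgeR adjusted p = 2.36e-07). keap1b, the other KEAP1 gene listed and also named after its values were seen, went the other way. It averaged 35.7 CPM in fed and 61.6 CPM in fasted livers, short of 2-fold (-0.79 ± 0.20, edgeR adjusted p = 0.00412). Its response to food minus that to ethanol was called (-1.13 ± 0.28, edgeR adjusted p = 0.00545). Under ethanol keap1a had 39.2 and 39.3 CPM, against 32.1 and 32.8 CPM in fasted livers, which was not called (0.28 ± 0.12), and the single riser of the list was nfe2l1b (1.08 ± 0.23, edgeR adjusted p = 0.00121).

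prdx1, a peroxiredoxin that reduces hydrogen peroxide with electrons from thioredoxin, had the widest range of the 10 genes, 34.3-fold between its lowest and highest group means. It had 24.1 and 23.3 CPM at 4 dpf, 9.43 and 9.89 at 5 dpf, 10.8 and 9.77 in fasted livers at 6 dpf and 14.6 and 9.54 in those at 7 dpf. The 4 dpf libraries were above all later libraries without food or ethanol, and prdx1 fell at 5 dpf against 4 dpf by 1.29 ± 0.15 on the log2 scale (edgeR adjusted p = 4.13e-06). With ethanol it rose to 86.5 and 83.7 CPM, against 10.8 and 9.77 in fasted livers, 8.25-fold or 3.04 ± 0.16 (edgeR adjusted p = 1.1e-10). With food it rose to 352 and 311 CPM, against 14.6 and 9.54 in fasted livers, 27.4-fold or 4.77 ± 0.17 (edgeR adjusted p = 1.41e-13). Neither pair of groups overlapped. Fed ventral livers had 254 and 231 CPM, below both fed libraries but not called (-0.45 ± 0.14, edgeR adjusted p = 0.144), and GCaMP livers, with 9.73 and 10.5 CPM, overlapped the wild type.

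srxn1 encodes sulfiredoxin, which repairs over-oxidized peroxiredoxins and is a standard NRF2 target in mammals. It had only 5 to 26 counts per library, or 0.230 to 1.28 CPM, and the highest and lowest group means were 2.24-fold apart. The fed ventral libraries alone had 6 and 25 counts, so replicates differed as widely as groups did. No comparison called it, and the 95% interval of its log2 difference ran from -1.51 to 2.41 with ethanol and from -1.61 to 2.25 with food, so a change of 2-fold in either direction was not detectable at this depth.

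txnrd3, a thioredoxin reductase that spends NADPH to recharge thioredoxin, had 797 and 771 CPM with ethanol, against 623 and 529.8 in fasted livers at 6 dpf. It had 868 and 838 CPM in fed ventral, 859 and 830.0 in fed and 596 and 618 in fasted livers at 7 dpf. The fed, fed ventral and ethanol libraries were above all 10 others. The differences were small: 0.44 ± 0.12 with ethanol (edgeR adjusted p = 0.00584) and 0.48 ± 0.12 with food (edgeR adjusted p = 0.00218), both short of 2-fold, with 95% intervals of 0.17 to 0.71 and 0.21 to 0.75. txnrd3 was called in none of the 8 comparisons. At 4 dpf it had 501 and 607 CPM and at 5 dpf 498 and 523.

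The thioredoxin that links these enzymes is encoded by txn. This gene, listed with 13 tested thioredoxin and peroxiredoxin genes, rose to 164 and 150.5 CPM with ethanol, against 33.4 and 31.9 CPM in fasted livers (2.27 ± 0.12, edgeR adjusted p = 1.1e-10). It was the only riser of that list under ethanol, where 11.8% of all genes rose and 11.1% fell. With food, for which it is named after its values were seen, txn rose to 139.6 and 138 CPM, against 49.7 and 46.9 CPM in fasted livers (1.52 ± 0.12, edgeR adjusted p = 2.39e-09). The response to food minus that to ethanol was -0.74 ± 0.16 for txn (edgeR adjusted p = 0.00123, short of 2-fold), of opposite sign to that of prdx1, given below. Under ethanol 3 genes of the list fell: prdx2, another peroxiredoxin (-1.43 ± 0.16), and the methionine sulfoxide reductases msra (-2.02 ± 0.19) and msrb1a (-1.28 ± 0.14). With food 4 of the 13 rose, among them the mitochondrial peroxiredoxin prdx3 (2.93 ± 0.15) and prdx4 of the endoplasmic reticulum (1.78 ± 0.12), and 3 fell, among them txnipa, which encodes a thioredoxin inhibitor (-1.57 ± 0.26). Over all genes 20.7% rose with food and 16.8% fell.

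gclc and gclm encode the catalytic and the modifier subunit of glutamate-cysteine ligase, the rate-limiting enzyme of glutathione synthesis. gclc had 40.3 and 43.2 CPM at 4 dpf, 37.2 and 40.8 at 5 dpf, 79.4 and 50.1 in fasted livers at 6 dpf and 44.8 and 48.3 in those at 7 dpf. The 79.4 CPM of 6 dpf fasted replicate 1 was the highest value of all 16 libraries. In CPM, though not in fold, it differed from its partner library by more than the highest and lowest group means differed. The highest group mean includes that library. No comparison called gclc. With ethanol it had 42.6 and 47.0 CPM, and its log2 difference of -0.53 (95% interval -0.90 to -0.17) was measured against that uneven group. Fed livers had 51.8 and 59.8 CPM, fed ventral livers 43.5 and 43.0 and GCaMP livers 52.1 and 55.7. Against 5 dpf, 6 dpf fasted livers were higher by 0.73 ± 0.16 (edgeR adjusted p = 0.00163), and past 2-fold without 6 dpf fasted replicate 2 (1.02).

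gclm was called in 1 of the 8 comparisons, that of 6 dpf fasted with 5 dpf livers, in which age and fasting cannot be told apart. It had 7.84 and 7.00 CPM at 4 dpf, 5.34 and 5.02 at 5 dpf, 21.4 and 20.2 in fasted livers at 6 dpf and 7.71 and 13.4 in those at 7 dpf. In 6 dpf fasted livers gclm rose 4.01-fold against 5 dpf (2.00 ± 0.20, edgeR adjusted p = 5.55e-07), with no overlap. In 7 dpf fasted livers it was 1.97-fold lower than at 6 dpf (-0.98 ± 0.19, edgeR adjusted p = 0.00207), just short of 2-fold. The 7 dpf fasted libraries were unlike each other, and the difference passed 2-fold without 7 dpf fasted replicate 2 (-1.43) or without 6 dpf fasted replicate 2 (-1.03). The highest group was ethanol with 25.4 and 25.4 CPM, against 21.4 and 20.2 in fasted livers, a log2 difference of 0.29 (95% interval -0.14 to 0.71) that was not called. Fed ventral livers had 13.9 and 14.0 CPM and fed livers 12.7 and 12.6, and food was not called either (0.26, 95% interval -0.18 to 0.71). Both subunits were higher at 6 dpf fasted than at 5 dpf and lower at 7 than at 6 dpf fasted, with wider values for gclm, and the difference between the subunits was not tested.

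gpx1b, a glutathione peroxidase, had its highest level with ethanol and its lowest in fed ventral livers. It had 3.18 and 3.35 CPM at 4 dpf, 7.16 and 11.4 at 5 dpf, 15.3 and 10.2 in fasted livers at 6 dpf and 21.0 and 16.9 in those at 7 dpf. The 6 dpf fasted libraries overlapped those at 5 dpf, whereas 5 dpf livers had risen against 4 dpf (1.503 ± 0.24, edgeR adjusted p = 0.000118), and 7 dpf fasted livers were 5.80-fold above 4 dpf (2.54 ± 0.24, edgeR adjusted p = 6.44e-08). With ethanol gpx1b rose to 60.8 and 57.9 CPM, against 15.3 and 10.2 in fasted livers, 4.64-fold or 2.21 ± 0.22 (edgeR adjusted p = 3.25e-07). The ethanol libraries were the highest of the series. Fed livers had 12.1 and 8.87 CPM, against 21.0 and 16.9 in fasted livers, which was 1.81-fold lower and short of the fold limit (-0.86 ± 0.22, edgeR adjusted p = 0.00324). Without fed replicate 1 (-1.05) or 7 dpf fasted replicate 2 (-1.003) it passed. Fed ventral livers had 1.97 and 2.56 CPM, against 12.1 and 8.87 in fed livers, a fall of 4.62-fold (-2.21 ± 0.26, edgeR adjusted p = 0.000146) to the lowest libraries of the series.

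Biliary cells line the bile ducts, and none of the 4 biliary markers listed was at 0 in any group. Their sum, as a share of raw counts, was 0.316% and 0.318% with ethanol, against 0.220% and 0.229% in 6 dpf fasted livers, but those shares are not TMM-scaled. With TMM scaling the 4 markers had a median log2 fold change of 0.539 with ethanol, against 0 over all genes. The most abundant of them differed in direction. krt18a.1 had 1624 and 1752 CPM with ethanol, against 1138 and 1121 in fasted livers. anxa4 had 768 and 738 CPM with ethanol, against 1274 and 1244 in fasted livers. The summed share was 0.0903% and 0.0919% in fed ventral livers, 0.124% and 0.107% in fed livers and 0.268% and 0.270% in 7 dpf fasted livers. None of the 4 was called with ethanol or in fed ventral against fed livers, and 1 of 4, anxa4, fell with food. Over all genes tested 11.8% rose and 11.1% fell with ethanol, and 20.7% rose and 16.8% fell with food. In fed ventral against fed livers 0.5% of all genes rose and 0.663% fell. The part of biliary cells in the gpx1b values was not tested. The gpx1b paralog gpx1a showed another pattern, with 194 and 192 CPM under ethanol, against 227 and 198 in fasted livers. With food gpx1a fell to 48.5 and 41.1 CPM, against 249 and 199.96 in fasted livers (-2.33 ± 0.14, edgeR adjusted p = 1.04e-10).

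cat encodes catalase, the peroxisomal enzyme that splits hydrogen peroxide and also oxidizes a little ethanol. It had 796 and 827 CPM at 4 dpf, 1306 and 1362 at 5 dpf, 750.3 and 645 in fasted livers at 6 dpf and 501 and 448 in those at 7 dpf. After the 5 dpf peak the values went down at each age, but no single step was called: 5 dpf against 4 dpf gave 0.72 ± 0.11, 6 dpf fasted against 5 dpf -0.94 ± 0.11 and 7 dpf against 6 dpf fasted -0.56 ± 0.11. Without 6 dpf fasted replicate 1 the step from 5 dpf was called (-1.05). With ethanol cat fell to 132 and 135 CPM, against 750.3 and 645 in fasted livers, 5.23-fold lower or -2.39 ± 0.12 (edgeR adjusted p = 6.4e-11). No other library came near that level. Fed livers had 1211 and 1233 CPM, against 501 and 448 in fasted livers, a 2.58-fold rise (1.36 ± 0.11, edgeR adjusted p = 7.06e-09), and fed ventral livers, with 1246 and 1190.1 CPM, overlapped them. GCaMP livers had 830.1 and 764 CPM, against 750.3 and 645 in wild type, and were not called.

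Catalase is abundant in mammalian red blood cells as well as in hepatocytes. Of 16 red blood cell markers, 15 rose with food, and their sum took 0.0631% and 0.0813% of counts in fed livers, against 0.00225% and 0.000991% in fasted livers, where hbbe3 was at 0. With ethanol 1 of the 16 rose and 1 fell, and the sum was 0.00687% and 0.00729%, against 0.00360% and 0.00687% in fasted livers, where hbae5 was at 0. Of 13 hepatocyte markers 4 rose and 1 fell with food, where 20.7% of all genes tested rose and 16.8% fell. Their sum was 18.4% and 16.8% of counts in fed livers, against 7.93% and 7.05% in fasted livers. With ethanol 2 of the 13 rose and 5 fell, at 11.8% and 10.5% of counts, against 10.5% and 10.6% in fasted livers. Over all genes tested 11.8% rose with ethanol and 11.1% fell. The part of these cells in the cat values was not tested.

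Calls among markers of other tissues and cell types follow, where 11.8% of all genes tested rose with ethanol and 11.1% fell. With ethanol all 17 tested pancreatic acinar markers fell, with a sum of 0.0133% and 0.141% of counts, against 0.440% and 0.345% in fasted livers, and ptf1a at 0 in both groups. Of 16 skin markers 13 fell, at 0.0699% and 0.0638% with ethanol, where krt1-19d was at 0, against 0.350% and 0.472% in fasted livers. Of 10 intestine markers 4 fell and 1 rose, at 0.0422% and 0.0573% with ethanol, where fabp6 was at 0, against 0.105% and 0.0919% in fasted livers. Of 10 endothelial markers 1 rose with ethanol, and of 12 macrophage and leukocyte markers 2 rose, with a sum for the 12 of 0.000888% and 0.00112% with ethanol, where c1qa was at 0, against 0.000434% and 0.000679% in fasted livers, where c1qa, c1qb and cd74b were at 0.

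Over all genes tested 20.7% rose with food and 16.8% fell. Of 10 intestine markers 6 rose with food and 1 fell, at 0.264% and 0.291% in fed livers, where fabp6 was at 0, against 0.0655% and 0.0651% in fasted livers. Of 10 endothelial markers 9 fell with food, at 0.0225% and 0.0227%, against 0.0726% and 0.0956% in fasted livers, with none at 0. Of 12 macrophage and leukocyte markers 7 rose, at 0.00321% and 0.00411% in fed livers, against 0.000844% and 0.000387% in fasted livers, where cd74b was at 0. Of 17 acinar markers 6 fell, at 0.308% and 0.272% in fed livers, against 0.659% and 1.35% in fasted livers, with none at 0. Of 16 skin markers 7 fell and 1 rose, at 0.0164% and 0.0231% in fed livers, where krt1-19d was at 0, against 0.0881% and 0.0933% in fasted livers. Some marker lists moved with age too, in a single direction save where stated. From 4 to 5 dpf 10 of 16 red blood cell and 9 of 17 acinar markers rose, against 7.44% of all genes. From 5 dpf to 6 dpf fasted 13 of 16 red blood cell markers fell, against 10.2%. There 9 of 16 skin markers rose, against 7.98%. From 4 dpf to 7 dpf fasted all 17 acinar and 8 of 10 endothelial markers rose, against 18.7%. Of 16 red blood cell markers 11 fell and 1 rose there, against 20.3% and 18.7%. The part of these tissues and cells in the members' values was not tested.

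hmox1a encodes heme oxygenase, which opens the heme ring to biliverdin, carbon monoxide and iron, and which mammalian BACH1 represses until heme displaces it. It had 2.05 and 2.66 CPM at 4 dpf, 10.7 and 13.5 at 5 dpf, 14.2 and 11.3 in fasted livers at 6 dpf and 28.9 and 27.5 in those at 7 dpf. hmox1a thus stood higher at 5 dpf than at 4 dpf (2.36 ± 0.26, edgeR adjusted p = 1.77e-06) and higher again at 7 than at 6 dpf fasted (1.14 ± 0.23, edgeR adjusted p = 0.00254), and 7 dpf fasted livers were 11.97-fold above 4 dpf (3.58 ± 0.26, edgeR adjusted p = 1.78e-09). Without 6 dpf fasted replicate 2 the 7 dpf step was 0.98 and lost its call. With food it fell to 4.63 and 5.33 CPM, against 28.9 and 27.5 in fasted livers, 5.65-fold lower (-2.50 ± 0.25, edgeR adjusted p = 9.46e-08). Fed ventral livers had 4.52 and 3.78 CPM, below both fed libraries but not called.

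With ethanol hmox1a had 18.2 and 19.1 CPM, against 14.2 and 11.3 in fasted livers, and was not called (0.54 ± 0.23, edgeR adjusted p = 0.0689), though it reached 2-fold when libraries were scaled by total counts alone (1.01). GCaMP livers had 17.0 and 31.2 CPM, against 14.2 and 11.3 in wild type. The GCaMP libraries were unlike each other but both above the wild type, and the difference of 0.91 ± 0.23 (edgeR adjusted p = 0.0505) was just short of 2-fold. It was called without GCaMP replicate 1 (1.29) and without 6 dpf fasted replicate 1 (1.09). bach1b, a zebrafish BACH1 gene named here after its values were seen, had 14.0 and 14.5 CPM in fed livers, against 28.2 and 44.7 in fasted livers, and fell (-1.35 ± 0.21, edgeR adjusted p = 4.39e-05). bach1a, the other BACH1 gene listed and also named after its values were seen, was not called with food. It averaged 6.66 CPM in fed and 6.74 CPM in fasted livers, whose libraries overlapped (-0.02 ± 0.26, edgeR adjusted p = 0.962). blvrb, which reduces biliverdin, fell with ethanol to 17.7 and 19.0 CPM, against 74.2 and 58.7 in fasted livers (-1.86 ± 0.14, edgeR adjusted p = 6.32e-09). blvra, the other biliverdin reductase gene listed, is named here after its values were seen. It was not called with ethanol (0.18 ± 0.29, edgeR adjusted p = 0.662) and rose with food (1.95 ± 0.29, edgeR adjusted p = 1.24e-05).

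osgn1, whose human counterpart is an oxidative stress induced growth inhibitor and an NRF2 target, parted the fed groups. It had 11.9 and 12.3 CPM at 4 dpf, 16.8 and 21.6 at 5 dpf, 14.7 and 12.2 in fasted livers at 6 dpf and 7.66 and 12.8 in those at 7 dpf, with no step called. In fed livers it rose to 31.4 and 39.5 CPM, against 7.66 and 12.8 in fasted livers, 3.47-fold or 1.80 ± 0.22 (edgeR adjusted p = 1.99e-06). In fed ventral livers it was at 3.67 and 5.32 CPM, against 31.4 and 39.5 in fed livers, a 7.91-fold fall (-2.98 ± 0.24, edgeR adjusted p = 5.72e-06). The fed libraries were the highest of the series and the fed ventral libraries the lowest. With ethanol osgn1 had 9.15 and 10.7 CPM, against 14.7 and 12.2 in fasted livers, and was not called (-0.45 ± 0.22). GCaMP livers, with 14.6 and 13.6 CPM, overlapped the wild type.

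**Figure D2:**
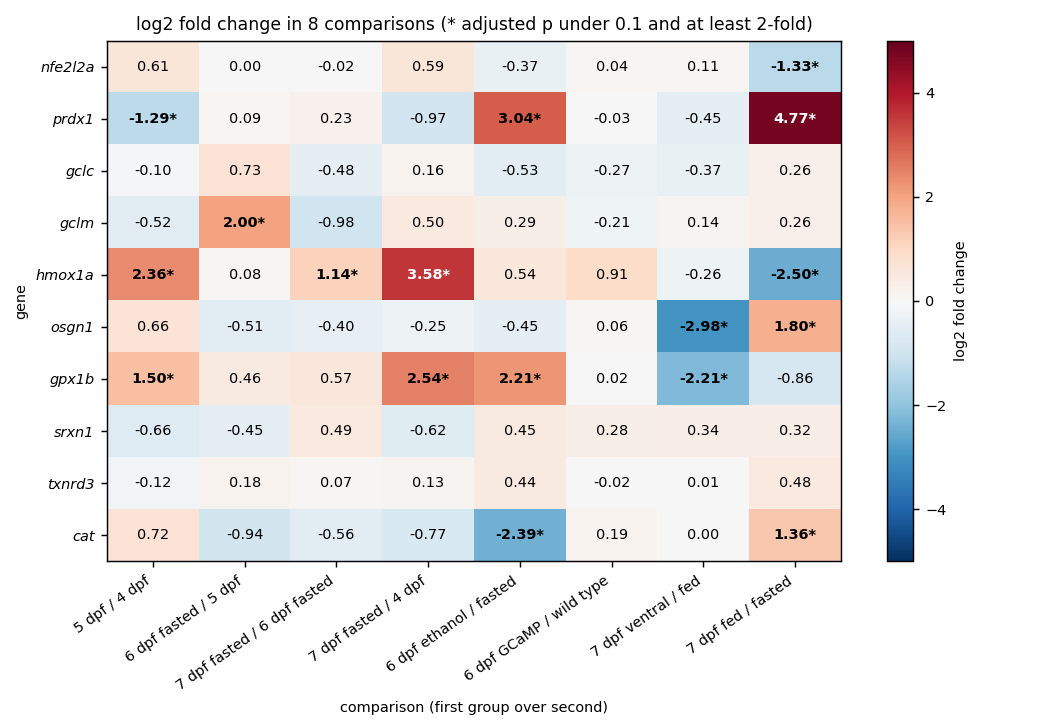
Log2 fold change of each of the 10 genes (rows) in the 8 comparisons (columns, first group over second), red for higher and blue for lower, with an asterisk at an adjusted p under 0.1 and at least 2-fold. The widest values are prdx1 with food (4.77) and hmox1a in 7 dpf fasted against 4 dpf livers (3.58), while gclc, srxn1 and txnrd3 carry no asterisk.

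The fed ventral libraries were also set against the fasted libraries at 7 dpf, a comparison added after the values were seen. prdx1 (4.32 ± 0.17) and cat (1.36 ± 0.11) rose and nfe2l2a (-1.22 ± 0.11) and hmox1a (-2.76 ± 0.25) fell, in the direction the fed libraries had. osgn1 turned, at -1.19 ± 0.24 (edgeR adjusted p = 0.000424), and gpx1b fell 8.39-fold (-3.07 ± 0.26, edgeR adjusted p = 1.28e-08). Those comparisons share the fasted libraries. Pancreatic acinar markers, from an organ next to the liver, took 0.0202% and 0.0679% of counts in fed ventral livers, against 0.308% and 0.272% in fed livers, with none of 17 tested called and none at 0. Skin markers took 0.0110% and 0.0988% in fed ventral livers, against 0.0164% and 0.0231% in fed livers, where krt1-19d was at 0, with none of 16 called. Median log2 fold changes were -2.65 for the acinar and 3.51 for the skin markers, where 0.5% of all genes rose and 0.663% fell. The part of these tissues in the osgn1 and gpx1b values was not tested.

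Food and ethanol were then compared directly, as the fed difference at 7 dpf minus the ethanol difference at 6 dpf, which share no library but differ in age. The difference between the responses was called for 5 of the 10 genes, 3 higher with food and 2 higher with ethanol, where 16.5% of all genes were higher and 14.6% lower. cat differed most (3.75 ± 0.16, edgeR adjusted p = 4.36e-12), since it rose with food and fell with ethanol. prdx1 responded to both, and more to food by 1.73 ± 0.21 (edgeR adjusted p = 3.42e-06). osgn1 was higher by 2.24 ± 0.31 (edgeR adjusted p = 1.7e-05) in the response to food, taken from the fed libraries alone. In fed ventral livers osgn1 was lower than in fasted livers (-1.19 ± 0.24), and that response was not compared with ethanol. hmox1a (-3.04 ± 0.33, edgeR adjusted p = 9.61e-07) and gpx1b (-3.07 ± 0.31, edgeR adjusted p = 4.13e-07) were higher in the response to ethanol. For nfe2l2a the difference was -0.97 ± 0.15 (edgeR adjusted p = 4.51e-05), short of 2-fold, and it was called without 7 dpf fasted replicate 1 (-1.02) and with library sizes left unscaled (-1.23). For gclc it was 0.79 ± 0.22 (edgeR adjusted p = 0.00919), and called without 6 dpf fasted replicate 2 (1.09). txnrd3, with 0.03 (95% interval -0.35 to 0.41), and gclm, with -0.02 (95% interval -0.64 to 0.59), had differences whose intervals stayed under 2-fold.

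**Figure D3:**
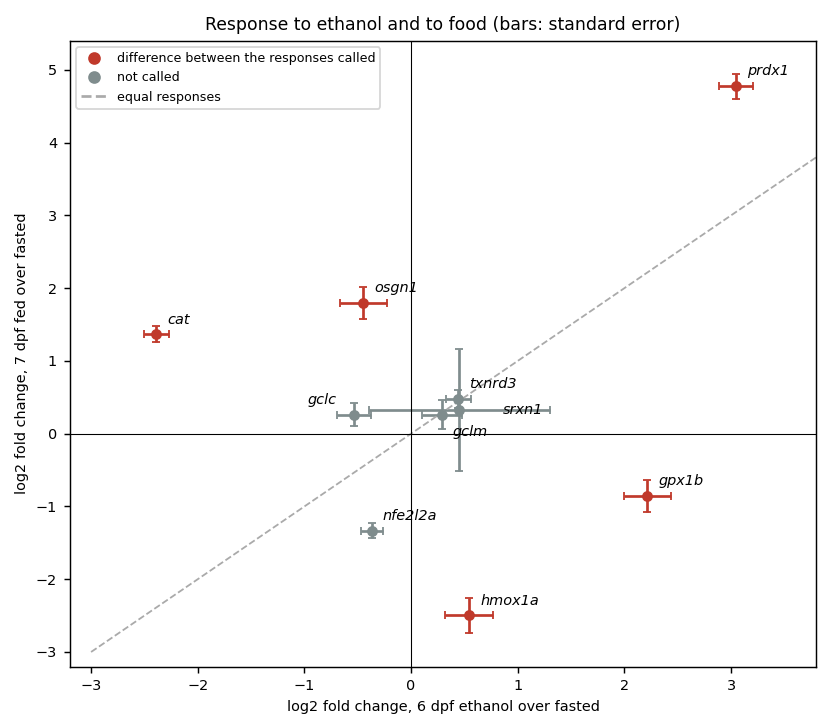
Log2 fold change of each gene with ethanol at 6 dpf (x axis) and with food at 7 dpf (y axis), bars giving the SE and the dashed line equal responses. prdx1 lies farthest to the right and highest, and txnrd3, gclm and srxn1 also lie right of 0 and above it. cat, osgn1 and gclc lie left of 0 and above it, and gpx1b and hmox1a lie right of 0 and below it. Red marks the 5 genes for which the difference between the responses was called.

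Other genes of the redox network came from lists drawn up from general knowledge, but with earlier results of these data known. Their counts are therefore descriptions and not independent of the data. Over all genes tested 11.8% rose and 11.1% fell with ethanol, and 20.7% rose and 16.8% fell with food. NADPH, the electron source of the glutathione and thioredoxin systems, is supplied by 7 tested genes: 5 of 7 rose with ethanol and all 7 rose with food, with medians of 1.42 and 3.63. pgd of the pentose phosphate pathway rose to 327 and 271 CPM with ethanol, against 45.3 and 46.2 in fasted livers (2.71 ± 0.14), and to 621 and 562 CPM with food, against 45.8 and 49.8 in fasted livers (3.63 ± 0.14). me1, the cytosolic malic enzyme, rose less with ethanol (1.69 ± 0.17) than with food (5.93 ± 0.21), and that difference was itself called (4.24 ± 0.25, edgeR adjusted p = 3.73e-10). In GCaMP livers me1 also rose (1.003 ± 0.17, edgeR adjusted p = 0.00675). The list went the other way in 7 dpf fasted against 4 dpf livers, where 5 of 7 fell and none rose. Of all genes 20.3% fell there and 18.7% rose.

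Of 16 tested genes of glutathione synthesis and recycling, 4 rose and 2 fell with ethanol, against 11.8% and 11.1% of all genes. With food 7 of the 16 rose and 3 fell, against 20.7% and 16.8%. The risers with ethanol included glutathione reductase gsr (1.36 ± 0.19), the glutaredoxin glrx (1.32 ± 0.14) and slc3a2b (1.27 ± 0.41). slc3a2b encodes a chain that the cystine transporter shares with other amino acid transporters. slc7a11, the other cystine transporter gene listed, was not among the genes tested. The fallers included slc3a2a (-1.23 ± 0.26). With food glrx (2.22 ± 0.15) and glrx3 (2.00 ± 0.14) rose, whereas slc3a2b fell (-2.97 ± 0.47), opposite to its change with ethanol. Of 6 tested features of superoxide removal, which cover 5 gene symbols, 2 fell with ethanol and 3 rose with food. The symbol ccs stood on more than 1 feature. Cytosolic sod1 fell to 37.8 and 37.2 CPM with ethanol, against 94.0 and 74.1 in fasted livers (-1.16 ± 0.16), and rose to 220.1 and 163 CPM with food, against 42.0 and 33.5 in fasted livers (2.34 ± 0.17). The secreted form sod3a did likewise (-1.23 ± 0.11 and 2.16 ± 0.12), the pattern of cat.

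Of 15 other tested genes listed as NRF2 targets, mostly from mammals, 1 rose and 2 fell with ethanol. Of all genes 11.8% rose there and 11.1% fell. These 15 include hmox2a and hmox2b, whose place among NRF2 targets was not checked, and neither was called with ethanol or food. With food 8 of the 15 rose and 1 fell, against 20.7% and 16.8%. gstp1, a glutathione transferase, rose with food to 883 and 707 CPM, against 24.9 and 22.0 in fasted livers (5.08 ± 0.15, edgeR adjusted p = 4.64e-14). ephx1, an epoxide hydrolase (4.76 ± 0.18), and ugdh, which makes the sugar donor of glucuronidation (3.49 ± 0.14), rose with it. With ethanol the bile canalicular exporter abcc2 rose (1.04 ± 0.16) and the autophagy receptor sqstm1 fell (-1.01 ± 0.22). nqo1, a quinone reductase often read as the NRF2 reporter gene and named here for that after its values were seen, had 319.9 and 157 CPM with ethanol, against 473 and 471 in fasted livers. Its log2 difference of -0.98 ± 0.28 (edgeR adjusted p = 0.0168) was just short of 2-fold and not called. With food nqo1 was lower as well, short of 2-fold and not called (-0.61 ± 0.28, edgeR adjusted p = 0.0914). In fed ventral against fed livers, slc3a2b of the glutathione list rose (2.27 ± 0.47, edgeR adjusted p = 0.0599). The iron exporter slc40a1 of the other targets rose as well (1.32 ± 0.15, edgeR adjusted p = 0.00011). No other gene of the 6 lists was called, where 0.5% of all genes rose and 0.663% fell.

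**Figure D4:**
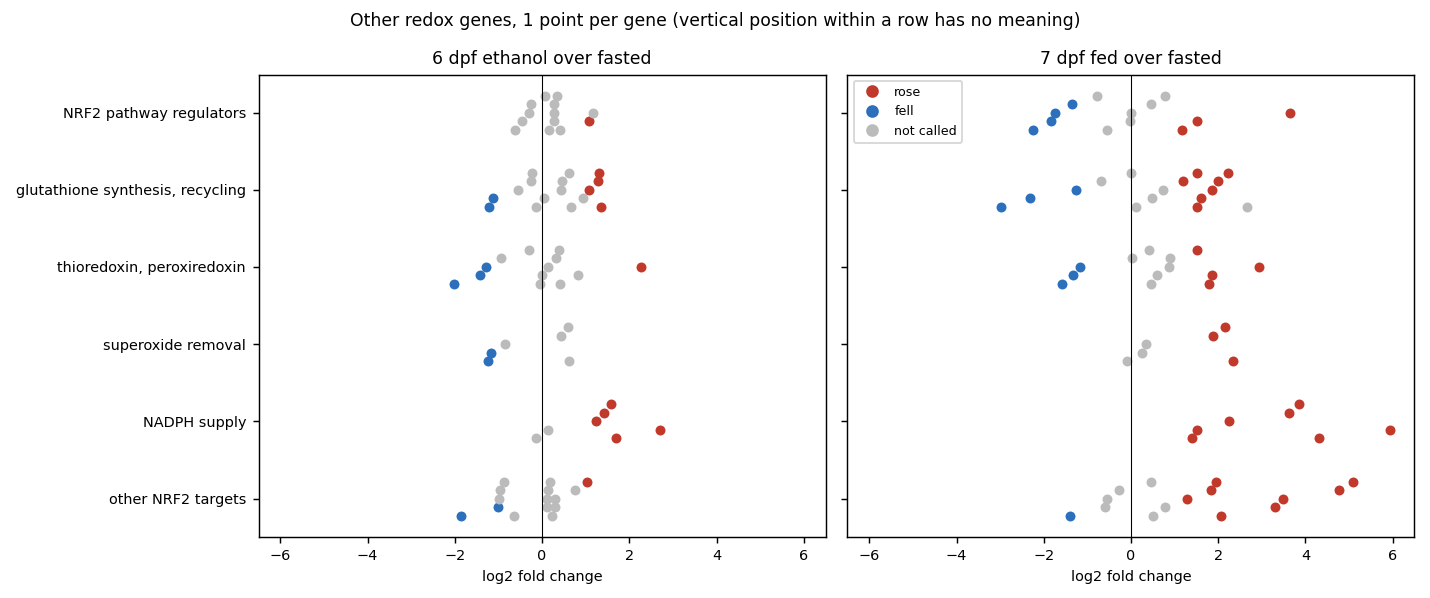
Log2 fold change (x axis) of tested genes of 6 redox lists (rows) with ethanol at 6 dpf (left) and food at 7 dpf (right). There is 1 point per gene, except that ccs has more than 1. Points are red where the gene rose, blue where it fell and grey where it was not called. All 7 NADPH genes are red with food and 5 are red with ethanol, whereas the superoxide genes are blue or grey with ethanol and red or grey with food.

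Genes whose level ran most like each member over the 16 libraries were sought among 6586 genes averaging at least 10 CPM. These are descriptions, since libraries of a group lie together and share their condition. prdx1 was most like pgd, taldo1 and aifm2, a ferroptosis suppressor (Pearson r = 0.98 each), and pgd and taldo1 belong to the pentose phosphate pathway. gsr (0.94) was among the 3 genes most like txnrd3. cat was most like the alcohol dehydrogenase adh8b (0.99), the coagulation factor gene f9a (0.98) and ces3 (0.98), and nfe2l2a most like cetp (0.98), zfand6 (0.97) and gpx1a (0.97). gpx1b was most like noxo1a (0.96), an NADPH oxidase organizer, then cdh17 (0.94), a cadherin of mammalian gut epithelium. hmox1a was most like zgc:162183 and ern1, the endoplasmic reticulum stress sensor (0.96 each), and gclm most like ntmt1 (0.91). The closest genes to gclc, osgn1 and srxn1, which were erbin (0.82), bhlhe40 (0.78) and hip1 (0.61), were less alike. Between members, r ran from -0.938 for nfe2l2a with prdx1 to 0.915 for prdx1 with txnrd3, also over 16 libraries.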

How the data were processed

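The authors deposited 1 table of unnormalized counts for 16 libraries. The submitters' processing notes name HISAT2, featureCounts and GRCz11, and the series design names iDEP 0.951. For the other versions, strand setting and annotation release: not given in the sources used here. Libraries were made with a directional kit. Of values from 1 to 50, 70.3% to 77.8% were even, against 50.9% to 56.2% over 1000, so mates may have been counted singly, and tests were repeated on halved counts.

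Counts were tested with edgeR 4.0.16 in R 4.3.3 (quasi-likelihood F test, TMM factors 0.837 to 1.3, low count filter by group, 1 model of 8 group coefficients and 8 residual degrees of freedom). The SE is the absolute log2 fold change over the square root of F, and intervals use the t distribution. Alternatives were RLE scaling, library size alone, no filter, DESeq2 1.42.0, halved counts, only the groups compared, a replicate block, leaving out each library, and for ethanol a control of GCaMP and wild type together. The script was tested on simulated data.

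The members and gene lists were chosen with earlier results of these data known. All members are named in every comparison, and of each list at most the 4 called genes with the widest change, apart from those said to be chosen after their values were seen. 9 of 183 listed symbols were not matched, and their genes were not analysed here. Promoter and protein sequences and coordinates were not used here. 1 gene among those most like a member is not reported here.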

Additional observations from a re-analysis of the deposited data

How the results depend on the processing

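Of 22 called values of the 10 genes, all kept their direction under every alternative except fed ventral in place of fed, below, and 1 lost its call, hmox1a between 6 and 7 dpf fasted, named above. Uncalled values near 0 changed sign more often, and the cause was not tested. Using unscaled library sizes shifted the all-gene median by 0.453 with ethanol, 0.189 with food, -0.342 at 5 against 4 dpf, -0.327 at 7 dpf fasted against 4 dpf and -0.215 for the food minus ethanol difference. It gave 4162 higher and 1041 lower calls with ethanol (80.0% higher, 51.6% in the main test), 30.7% higher in fed ventral against fed (43.0%), 17.9% at 5 dpf (50.1%), 32.0% at 7 dpf fasted against 4 dpf (48.0%) and 40.9% for the food minus ethanol difference (53%). At 7 dpf fasted against 4 dpf it called 4 members and not 2, adding prdx1 (-1.32) and cat (-1.12), and prdx1 was also called there without 4 dpf replicate 2 (-1.01) or 7 dpf fasted replicate 1 (-1.32). Signs it turned were nfe2l2a (0.090) and osgn1 (0.011) with ethanol, nfe2l2a (-0.036), osgn1 (-0.013) and gpx1b (-0.051) in GCaMP, txnrd3 (-0.084) in fed ventral against fed, nfe2l2a (0.077) at 6 dpf fasted against 5 dpf, gclc (-0.19) and txnrd3 (-0.21) at 7 dpf fasted against 4 dpf, and txnrd3 (-0.23) for food minus ethanol.

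cat in fed ventral against fed turned under RLE (0.027) and DESeq2 (0.027). nfe2l2a at 6 dpf fasted against 5 dpf turned under RLE (0.024), DESeq2 (0.024), halved counts (0.0064) and with only the groups compared (0.021), as did nfe2l2a at 7 against 6 dpf fasted with only the groups compared (0.012). Fed ventral in place of fed, chosen after seeing the data, turned osgn1 (-1.19) and gclc (-0.11). Without the filter, 461 genes were called in GCaMP and 733 in fed ventral against fed, where DESeq2 called 380, against 171 and 207 in the main tests.

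Leaving out each library gave 55 to 237 genes and 0 to 1 members called in GCaMP, with 55 and 59 genes without GCaMP replicate 1 and 6 dpf fasted replicate 2, and 85 to 224 genes in fed ventral against fed, the fewest without fed replicate 2, and 1 to 2 members at 6 dpf fasted against 5 dpf and at 7 against 6 dpf fasted. Uncalled values that turned ran as follows. In GCaMP they were gclc -0.56 to 0.11, gpx1b -0.24 to 0.34, osgn1 -0.062 to 0.21, prdx1 -0.10 to 0.054, srxn1 -0.51 to 0.85 and txnrd3 -0.13 to 0.10. With food they were gclm -0.084 to 0.72 and srxn1 -0.024 to 0.76, and for food minus ethanol gclm -0.38 to 0.42, srxn1 -0.70 to 0.31 and txnrd3 -0.091 to 0.15. In fed ventral against fed they were cat -0.039 to 0.028, srxn1 -1.15 to 1.07 and txnrd3 -0.012 to 0.040. By age they were txnrd3 -0.27 to 0.014 at 5 against 4 dpf, hmox1a -0.10 to 0.25 and nfe2l2a -0.033 to 0.019 at 6 dpf fasted against 5 dpf, nfe2l2a -0.072 to 0.033, prdx1 -0.11 to 0.50 and txnrd3 -0.041 to 0.19 at 7 against 6 dpf fasted, and osgn1 -0.67 to 0.074 and txnrd3 -0.031 to 0.25 at 7 dpf fasted against 4 dpf. Where a library is left out, its partner is assumed to vary like the other groups.

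Replicate numbers are not stated to pair libraries. Over 28 pairs of groups, same-numbered deviations correlated at -0.231 to 0.224, which cannot show whether libraries were paired. With a replicate block, 4007 genes were called with ethanol and 6600 with food, and it changed no member's call. Crossed numbers, tried after seeing the data, gave 3195 calls at 6 dpf fasted against 5 dpf and 1157 at 7 against 6 dpf fasted. Pools of 2 per group limit precision, and depth limits srxn1.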
